A study of Homo sapiens with 12 samples.

Results

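The mitosis and chromosome segregation genes examined here were 59 genes chosen by symbol for their known roles, and no measured value entered the rule. They comprised 10 entry kinases, phosphatases and cyclins, 4 members of the chromosomal passenger complex, 5 spindle assembly checkpoint genes, 9 centromere and kinetochore genes, 6 genes of anaphase and sister chromatid separation, 11 kinesin motors, 5 spindle microtubule proteins, 3 cytokinesis genes and 6 condensin and topoisomerase genes. All 59 were found among the 58233 genes of the expression table. Gene expression was measured by RNA sequencing of poly(A) RNA in HL-60, an established human promyeloblast line from acute myeloid leukaemia, listed as wild type and grown in RPMI with 10% FCS. There were 4 groups of 3 libraries, namely no treatment, ATRA at 100 nM, palbociclib at 500 nM, and both agents together at these doses (the combination), each at 3 h. ATRA, all-trans retinoic acid, activates retinoic acid receptors, and palbociclib inhibits the kinases CDK4 and CDK6. All libraries came from 1 cell line, and no label says whether replicates were separate cultures, so the p-values measure only the spread between these libraries, which may be technical. The question was which mitotic genes had moved at 3 h, when genes of the G1/S transition fall.

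Genes of the cell cycle are transcribed in successive waves. CDK4 and CDK6 phosphorylate the retinoblastoma protein and its relatives, which releases E2F factors and lets genes of the G1/S transition and of DNA synthesis be transcribed. Mitotic genes are transcribed later, in G2 and M, by the MuvB complex with B-MYB and FOXM1, and in quiescent cells the same MuvB core forms the repressive DREAM complex, which binds their promoters at the cell cycle homology region. In mitosis itself, CDK1 with cyclin B drives entry, kinetochores attach chromosomes to spindle microtubules, the checkpoint delays anaphase until attachment is complete, and the anaphase-promoting complex with CDC20 then releases separase.

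Values are RPKM, reads normalised for gene length and library size, which the authors rounded to whole numbers. The sums of RPKM over all genes ranged from 358455 to 390247 per library and are not read totals, so the depth of each library is unknown and no counting error is given. Errors beside levels are SDs over 3 libraries. Changes are log2 fold changes of RPKM + 0.1 with the SE of the fit (limma over all 12 libraries), a scale that understates the change of low genes. A gene was called at a Benjamini-Hochberg adjusted p under 0.05 over the 7820 genes with at least 5 RPKM in at least 3 libraries. Of the 59 mitotic genes, 57 passed this filter. SPC24 (3 to 4 RPKM) and CENPK (2 to 4 RPKM), both kinetochore genes, did not and were not tested. CDC25C passed only through the libraries that contained ATRA, so its call in comparisons of those libraries is in part a consequence of the filter. All 9 myeloid markers were detected in at least 1 library, 8 of them reaching 5 RPKM and ELANE only 0 to 1 RPKM, with sums of 1601 to 2071 RPKM per library. The T cell, erythroid, epithelial and fibroblast markers were at 0 in every library, 1 of 3 B cell markers reached 1 RPKM, and 1 of 3 endothelial markers was found at 2 to 6 RPKM.

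The first replicates of the 3 treated groups stood apart. In them, genes of large exonic length were low relative to the other replicates of the same group. Exonic length is the merged length of all annotated exons of a gene, which can exceed that of the transcript expressed. Across 7795 genes, Spearman correlations between deviation and exonic length were -0.486 with ATRA, -0.495 with palbociclib and -0.437 with the combination. The other treated libraries had correlations of 0.250 to 0.429, and the untreated libraries 0.164, 0.0876 and -0.265. For the 57 mitotic genes, whose exonic length ranged from 1286 to 12471 bases, the correlations in the treated replicates 1 were -0.597 to -0.663. TOP2A, for example, measured 128, 142 and 136 RPKM untreated and 95, 135 and 124 RPKM with palbociclib. In the treated groups BUB3 (8175 bases) and KIF22 (7169 bases) were not low, with mean ratios of replicate 1 to the others of 1.03 and 1.09. These lengths are of merged exons, so the transcripts expressed need not be long. The part of length in these differences was not tested. The counts of called genes are therefore also given without these 3 libraries, a setting chosen after the data were seen.

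**Figure D1:**
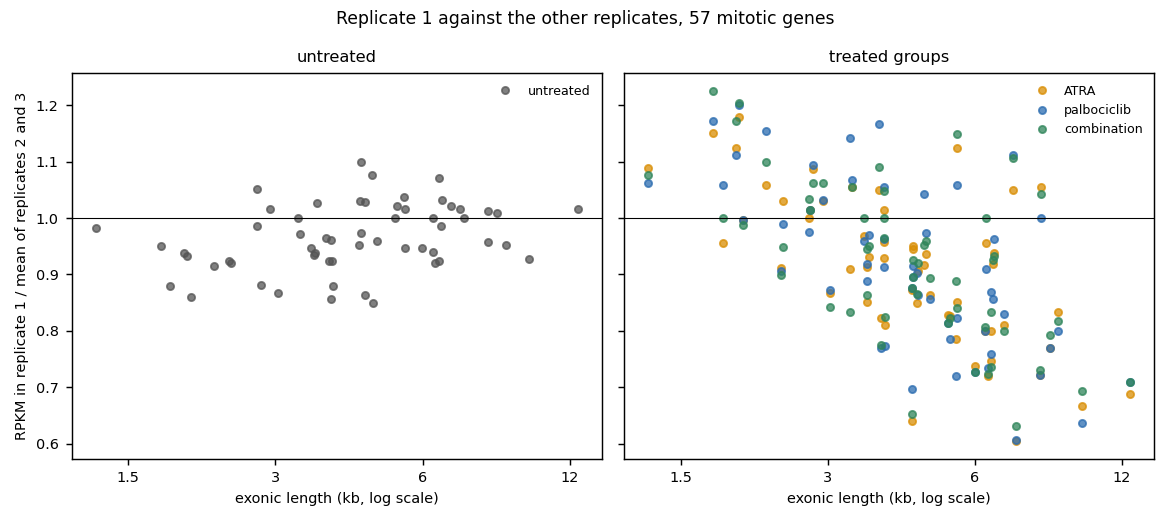
RPKM in replicate 1 divided by the mean of replicates 2 and 3 of the same group (y axis) against exonic length in kb (x axis, log scale) for the 57 tested mitotic genes, 1 point per gene and group. In the treated groups the ratio declines with length, and the Spearman correlations between deviation and length in the treated replicates 1 were -0.597 to -0.663.

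In untreated cells the mitotic genes ranged from 3.0 RPKM for CDC25C and SPC24 to 135 ± 7.02 RPKM for TOP2A, the topoisomerase that disentangles sister chromatids. As RPKM, which is per length, CDC20, the activator of the anaphase-promoting complex, followed at 119 ± 10.4 RPKM, below TOP2A in each untreated library. Below them came the spindle protein NUSAP1 at 79.3 ± 3.06 RPKM, cyclin A2 (CCNA2) at 78.3 ± 3.06 RPKM and the spindle assembly factor TPX2 at 75.3 ± 4.16 RPKM, which also lay within their spread of each other. By role, the median untreated level was highest for the anaphase genes (54.5 RPKM) and lowest for the centromere and kinetochore genes (17.3 RPKM). CDC20 and UBE2S may share reads with processed copies, since CDC20P1 reached 25 RPKM and UBE2SP1 42 RPKM in a library. The authors state default settings for the counting and do not name the strand setting or say whether the libraries were stranded. In the annotation, 22 members including CCNA2, CDC25C, NUF2 and KIF2C overlap exons of another gene. How reads in these overlaps were assigned was not checked, so the overlaps may affect the values of these members.

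With palbociclib, 6 of the 57 tested mitotic genes were lower at an adjusted p under 0.05 (limma): CCNA2, the kinetochore gene SPC25, the cohesin regulator CDCA5 (sororin), the checkpoint gene BUB3, the condensin subunit NCAPH and CDK1. At the ends of the range, the fitted level of BUB3 fell by 15.0% and that of SPC25 fell by 27.5%. None was higher. Over all tested genes, 3.16% were called lower and 0.908% higher. At an unadjusted p under 0.05, 21 of the 57 were lower and 0 higher, where 10.1% of all tested genes were lower and 7.28% higher. In bulk RNA, fewer cells in G2 and M and less RNA per cell cannot be told apart. The median log2 fold change of the 57 was -0.18 against 0.00 over all tested genes, and 52 of the 57 had a negative value. After centring each library on its median the median was -0.10, 43 were negative, and 0 of the 6 calls remained, with adjusted p-values of 0.0547 to 0.381. The same centring moved the median over all tested genes to 0.08, with 31.4% negative. It left 101 of the 7820 tested genes called lower, against 247 before it. Because values are whole numbers, a library's median could only be 12 or 13 RPKM. Centring on the mean log2 value, a setting added after the data were seen, kept all 6 calls with a median of -0.17.

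CCNA2 (chr4:121816444-121823883), whose protein activates CDK2 in S phase and CDK1 in G2, measured 81, 79 and 75 RPKM in untreated cells and 58, 62 and 57 RPKM with palbociclib. The groups did not overlap. The log2 fold change was -0.41 ± 0.06 (SE), with an adjusted p of 0.00583. SPC25 (chr2:168834132-168913371), a subunit of the NDC80 complex that holds microtubules at the kinetochore, measured 11, 13 and 12 RPKM untreated and 9, 9 and 8 RPKM with palbociclib. It had the largest decrease among the mitotic genes, at -0.46 ± 0.08 (adjusted p = 0.00682), although at this level 1 step of rounding is a sizeable part of the value. CDCA5 (chr11:65066300-65084164), which protects cohesin from removal before anaphase, measured 37, 41 and 36 RPKM untreated and 29, 30 and 25 RPKM with palbociclib. Its log2 fold change was -0.44 ± 0.08 (adjusted p = 0.0116), again with no overlap between groups. CCNA2 and SPC25 remained called in all 12 fits that each left out 1 library, and CDCA5 was lost without untreated replicate 2 (adjusted p = 0.0524).

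CDK1 (chr10:60778331-60794852), the kinase of mitotic entry, measured 48, 52 and 52 RPKM untreated and 37, 43 and 38 RPKM with palbociclib, so that every treated library lay below every untreated one. The log2 fold change was -0.37 ± 0.09 (adjusted p = 0.0418). This call was lost, at adjusted p-values of 0.0517 to 0.131, without ATRA replicate 1 or 3, combination replicate 1, palbociclib replicate 1 or 3, or any 1 of the untreated libraries. NCAPH (chr2:96335766-96377091), the kleisin subunit of condensin I, measured 34, 35 and 34 RPKM untreated and 24, 29 and 27 RPKM with palbociclib, a log2 fold change of -0.37 ± 0.08 (adjusted p = 0.0389). It was lost at 0.0598 to 0.111 without ATRA replicate 3, palbociclib replicate 1 or 3, or any 1 untreated library. BUB3 (chr10:123154402-123170467), which recruits checkpoint proteins to kinetochores, measured 38, 38 and 37 RPKM untreated and 32, 33 and 31 RPKM with palbociclib. The change was the smallest of the 6, at -0.23 ± 0.05 (adjusted p = 0.0220), and was lost at 0.0641 to 0.0699 without palbociclib replicate 3 or untreated replicate 1 or 2. The number of mitotic genes called lower fell to 3 without palbociclib replicate 3, 3 without untreated replicate 1 and 2 without untreated replicate 2. Among all 7820 tested genes it fell from 247 to 158, 143 and 141 in these fits.

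Several central mitotic regulators showed no decrease of this size with palbociclib. CCNB1 (cyclin B1) measured 46, 49 and 51 RPKM untreated and 48, 47 and 50 RPKM with palbociclib, a log2 difference of -0.01 with a 95% interval of -0.12 to 0.11. PLK1, the polo kinase, measured 34, 44 and 36 RPKM untreated and 37, 42 and 34 RPKM with palbociclib, with a wider interval of -0.25 to 0.23. For CDC20 the values were 107, 127 and 122 RPKM untreated and 120, 122 and 119 RPKM with palbociclib (interval -0.11 to 0.16). AURKA, the spindle pole kinase, had an interval of -0.11 to 0.17 and UBE2C, the ubiquitin-conjugating enzyme of the anaphase-promoting complex, one of -0.19 to 0.09. The lower bounds for CCNB1, CDC20, AURKA and UBE2C lay above the fitted change of BUB3, and that of PLK1 did not.

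**Figure D2:**
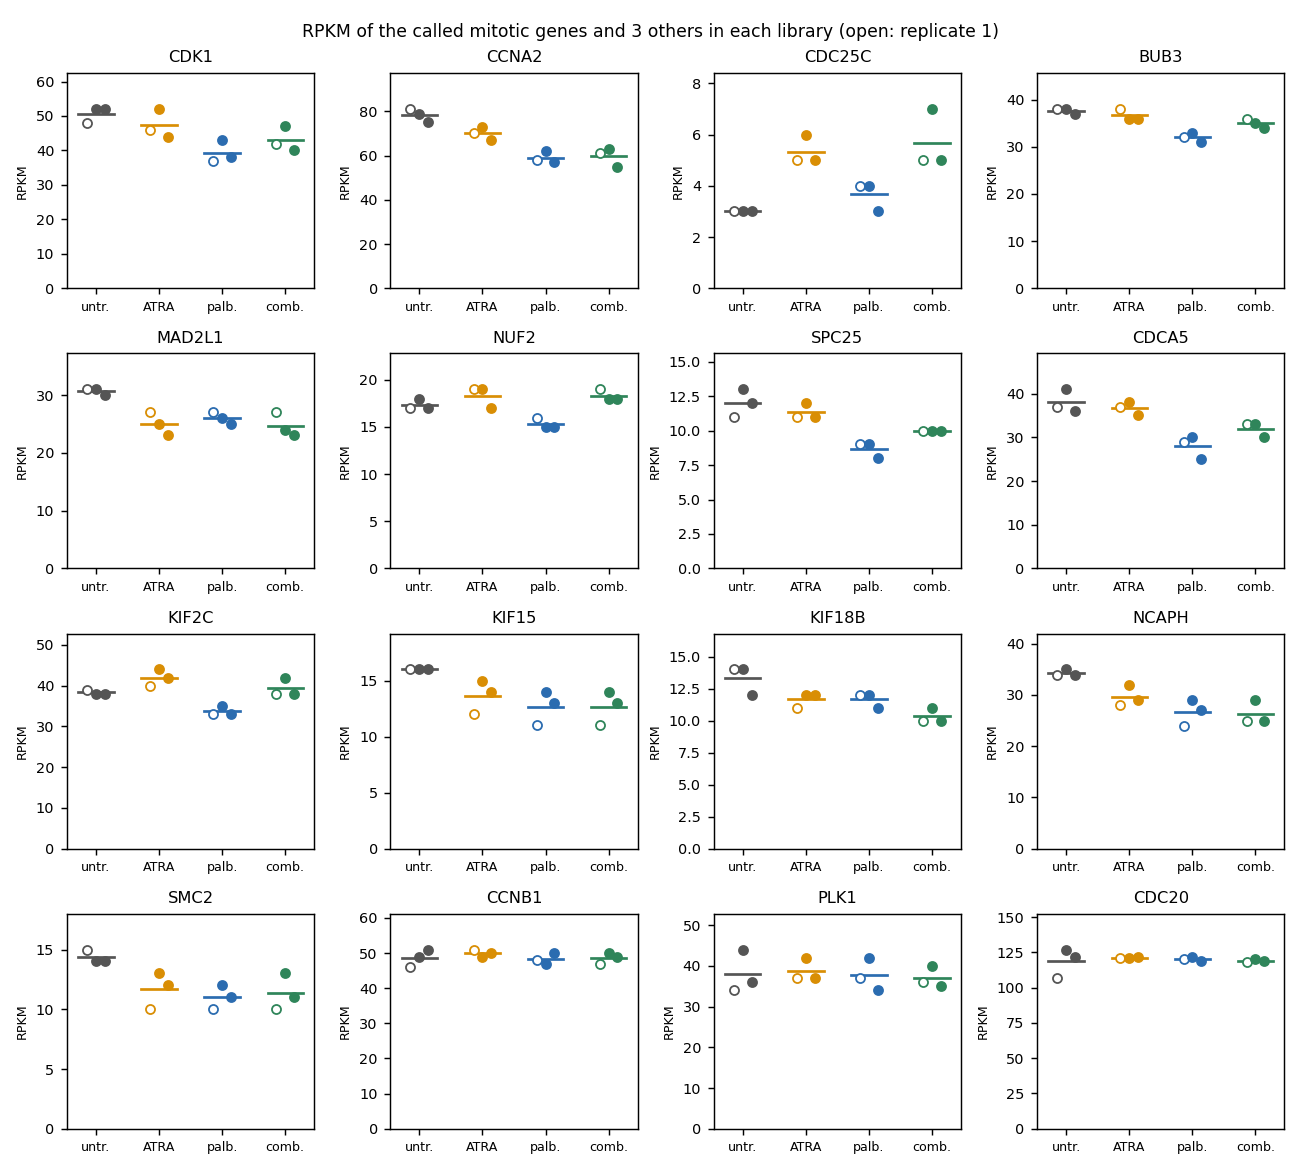
RPKM (y axis, from 0) in each of the 12 libraries for the 13 mitotic genes called in any comparison and for CCNB1, PLK1 and CDC20, by group (untr., untreated; palb., palbociclib; comb., combination). Points are libraries, open for replicate 1, and horizontal lines are group means; CCNA2 lay at 75 to 81 RPKM untreated and 57 to 62 RPKM with palbociclib, whereas CCNB1 lay at 46 to 51 RPKM in every group.

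By role, the medians with palbociclib were -0.33 for the 6 condensin and topoisomerase genes, -0.28 for the 3 cytokinesis genes, -0.23 for the 11 kinesins, -0.20 for the 5 checkpoint genes and -0.18 for the 7 tested kinetochore genes. They were -0.15 for the chromosomal passenger complex, -0.09 for the spindle microtubule proteins and -0.03 for both the entry regulators and the anaphase genes. Without palbociclib replicate 1 the order changed, with medians of -0.22 for the condensin and topoisomerase genes, -0.21 for the kinetochore genes, -0.18 for the kinesins, -0.16 for the passenger complex, -0.14 for the checkpoint genes, -0.13 for the cytokinesis genes, -0.07 for the anaphase genes, -0.04 for the spindle microtubule proteins and -0.0031 for the entry regulators. The calls depended on the model. With the replicate number as a block, 24 of the 57 were lower with palbociclib, against 8.13% of all tested genes. Deviations of same-numbered untreated and palbociclib libraries correlated at 0.0957 to 0.351, so this pairing is uncertain. Without the block, no gene was called among the kinesins, the passenger complex, the spindle microtubule proteins or the cytokinesis genes. Of these, KIF23, the motor of the central spindle, came closest, at -0.23 ± 0.06 (adjusted p = 0.0517). NUSAP1, which bundles spindle microtubules, measured 76, 82 and 80 RPKM untreated and 60, 72 and 63 RPKM with palbociclib (-0.29 ± 0.08, adjusted p = 0.0638). ANLN (anillin), a scaffold of the contractile ring, measured 18, 20 and 18 RPKM and 12, 17 and 16 RPKM (-0.33 ± 0.18, adjusted p = 0.381), where replicate 1 was again the lowest. CDCA8 (borealin), of the passenger complex, measured 60, 69 and 61 RPKM and 53, 61 and 56 RPKM, and these ranges overlapped (-0.16 ± 0.09, adjusted p = 0.414). In all, 21 of the 57 had every palbociclib library below every untreated library and 0 the reverse, where 9.48% of all tested genes were so separated in the lower direction.

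Without the 3 treated replicates 1, 8 mitotic genes were called lower with palbociclib, against 5.41% of all tested genes. CCNA2, SPC25, CDCA5 and BUB3 stayed among them, MAD2L1, CENPM, KIF15 and KIF23 were added, and CDK1 (adjusted p = 0.129) and NCAPH (adjusted p = 0.0723) were lost. The median over the 57 was then -0.14, with 43 negative.

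The proximal promoters of the 4 genes with the largest fitted decreases with palbociclib or the combination (SPC25, CDCA5, CCNA2 and NCAPH) are shown, with those of CDK1 and CCNB1. They carry different combinations of the words searched for. RefSeq windows of 300 bases (GRCh38.p14, 250 bases before to 50 after the annotated start) were available for 51 of the 59 genes and for 27305 genes in all, and were searched on both strands for the cell cycle homology region (TTTGAA or TTTAAA), the CCAAT box (CCAAT) and an E2F motif (TTTGGCGC, TTTGCCGC, TTTCGCGC or TTTCCCGC). No word contains another, and a gene was counted once per motif. Matches are in capitals, on either strand. The windows are SPC25 (chr2:168890381-168890680, minus strand), CDCA5 (chr11:65083991-65084290, minus strand), CCNA2 (chr4:121823834-121824133, minus strand), NCAPH (chr2:96335516-96335815, plus strand) and CDK1 (chr10:60778081-60778380, plus strand, 1 of 2 windows), with CCNB1 (chr5:69166900-69167199, plus strand) as a mitotic cyclin whose level differed little.
SPC25: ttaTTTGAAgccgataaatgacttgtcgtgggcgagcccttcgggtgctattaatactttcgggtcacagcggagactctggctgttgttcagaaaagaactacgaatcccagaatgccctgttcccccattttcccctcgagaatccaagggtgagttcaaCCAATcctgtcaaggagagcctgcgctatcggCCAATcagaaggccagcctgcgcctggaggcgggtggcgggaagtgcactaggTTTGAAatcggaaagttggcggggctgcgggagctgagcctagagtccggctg
CDCA5: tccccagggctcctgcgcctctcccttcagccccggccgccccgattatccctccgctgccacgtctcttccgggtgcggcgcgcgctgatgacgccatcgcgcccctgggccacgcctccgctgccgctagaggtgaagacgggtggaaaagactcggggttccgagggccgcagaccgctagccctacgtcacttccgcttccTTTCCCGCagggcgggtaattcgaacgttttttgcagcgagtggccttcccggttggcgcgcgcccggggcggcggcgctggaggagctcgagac
CCNA2: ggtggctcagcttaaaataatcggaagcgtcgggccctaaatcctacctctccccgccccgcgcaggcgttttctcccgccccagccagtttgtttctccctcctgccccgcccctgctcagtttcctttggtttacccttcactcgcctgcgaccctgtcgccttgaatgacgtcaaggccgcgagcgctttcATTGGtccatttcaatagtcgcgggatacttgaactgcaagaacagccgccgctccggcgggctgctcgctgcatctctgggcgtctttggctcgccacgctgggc
NCAPH: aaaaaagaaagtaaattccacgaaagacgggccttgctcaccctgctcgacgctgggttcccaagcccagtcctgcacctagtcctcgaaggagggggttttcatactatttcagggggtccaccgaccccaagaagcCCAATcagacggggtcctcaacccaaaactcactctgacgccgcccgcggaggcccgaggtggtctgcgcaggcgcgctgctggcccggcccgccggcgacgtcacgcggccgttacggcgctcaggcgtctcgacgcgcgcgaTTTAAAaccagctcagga
CDK1: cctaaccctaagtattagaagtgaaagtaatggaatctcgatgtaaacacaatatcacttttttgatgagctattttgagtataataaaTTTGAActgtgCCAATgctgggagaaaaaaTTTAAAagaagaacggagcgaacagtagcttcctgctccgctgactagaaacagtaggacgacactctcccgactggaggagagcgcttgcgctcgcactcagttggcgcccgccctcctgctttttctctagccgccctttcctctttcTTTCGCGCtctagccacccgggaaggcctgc
CCNB1: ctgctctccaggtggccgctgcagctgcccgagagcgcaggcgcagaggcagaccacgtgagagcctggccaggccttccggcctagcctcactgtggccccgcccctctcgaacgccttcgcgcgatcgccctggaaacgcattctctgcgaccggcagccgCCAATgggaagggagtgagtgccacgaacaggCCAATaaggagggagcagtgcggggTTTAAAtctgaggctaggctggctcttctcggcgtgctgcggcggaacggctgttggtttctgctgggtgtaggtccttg
The E2F word of CDCA5 began 45 bases before the start and that of CDK1 began 19 bases after it. CCNA2 had a CCAAT box on the strand opposite to the printed one, read here as ATTGG. CCNB1 had 2 CCAAT boxes and a homology region word and no E2F word.

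Of the 51 mitotic genes with a window, 43 (84.3%) held the homology region, against 27.9% of all windows, 40 (78.4%) held a CCAAT box, against 39.7%, and 5 (9.80%) held an E2F word, against 3.99%. Of 66 other mitosis genes with a window, 51.5% held the homology region, 71.2% a CCAAT box and 15.2% an E2F word. Among the genes called lower with palbociclib, 5 had a window. Of these, 3 held a homology region word as searched, 4 the CCAAT box and 2 an E2F word (CDCA5 and CDK1). Among the 44 other tested genes with a window, the numbers were 40, 34 and 3. Only TTTGAA and TTTAAA were counted as the homology region. Close variants were not searched, such as TTCGAA in the CDCA5 window and CTTGAA in the CCNA2 window. A gene without a counted word may therefore hold a variant. With 5 genes these shares are a description, and a match to a short word is not evidence of binding.

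The decreases of the S phase genes were larger in the median than those of the mitotic genes. Of 41 tested genes of a published S phase list, 36 were called lower with palbociclib, with a median log2 fold change of -0.79, against 6 of 57 and -0.18 for the mitotic genes. CCNA2, at -0.41, was nearer to 0 than the S phase median. Between these lists no test was made. With palbociclib 3.16% of all tested genes were called lower and 0.908% higher. A wider list of 81 further mitosis genes gave 76 tested, of which 10 were lower and 0 higher with palbociclib (2 of them were lower at an adjusted p under 0.001), with a median of -0.19. After centring on library medians 5 of these remained lower. Of the 7820 tested genes, 38 were lower at an adjusted p under 0.001 and 101 were lower after centring. On the wider list, the 5 genes with the smallest adjusted p were CDC25A, WEE1, SMC3, SKA3 and ZWINT. CDC25A, a phosphatase that activates CDK2 at the G1/S transition as well as CDK1, measured 36, 35 and 34 RPKM untreated and 18, 19 and 18 RPKM with palbociclib, at -0.93 ± 0.06. WEE1, the kinase that opposes it, was at 8 RPKM in every untreated library and 5 RPKM in every palbociclib library (-0.67 ± 0.07). The cohesin subunit SMC3 (-0.52 ± 0.07) and the outer kinetochore genes SKA3 (-0.39 ± 0.05) and ZWINT (-0.37 ± 0.06) followed.

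Of 12 genes that regulate transcription of mitotic genes, 9 were tested and 3 were lower with palbociclib, where 3.16% of all tested genes were. RBL1 (p107), a pocket protein of DREAM, changed from 11.3 ± 0.577 to 5.67 ± 1.15 RPKM (-1.0 ± 0.17, adjusted p = 0.00948). TFDP1, the dimer partner of E2F factors, changed from 105 ± 3.51 to 84.3 ± 3.79 RPKM and the MuvB subunit RBBP4 from 29.3 ± 1.15 to 24.3 ± 1.53 RPKM. These 3 were called in 11, 5 and 2, respectively, of the 12 fits leaving out 1 library, and the median over the 9 was -0.27.

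**Figure D3:**
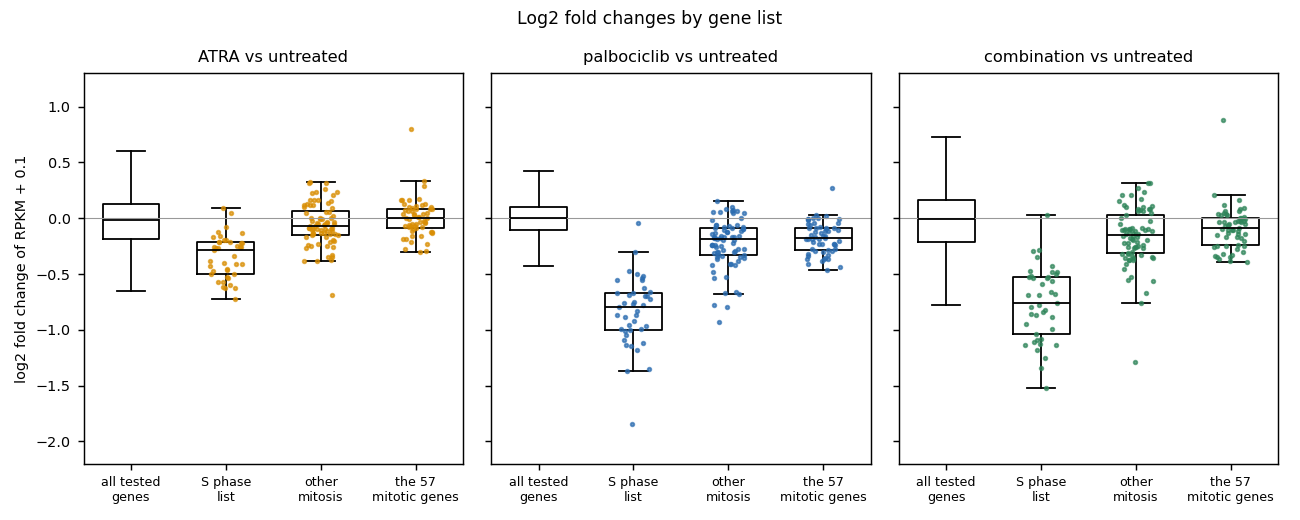
Log2 fold change of RPKM + 0.1 (y axis) against untreated cells for all 7820 tested genes, 41 S phase genes, 76 other mitosis genes and the 57 mitotic genes. Boxes show quartiles and median, whiskers reach to the last value within 1.5 box lengths, and points are genes. With palbociclib the S phase median was -0.79 and that of the 57 mitotic genes -0.18. The plotted values are not centred. After centring on library medians the median of the 57 was -0.10, where that of all tested genes was 0.08.

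With ATRA alone, the mitotic genes as a group moved little. CDC25C was higher and MAD2L1 lower, where 8.71% of all tested genes were called higher and 11.6% lower. The median of the 57 was 0.00, with 28 negative and 28 positive values. CDC25C (chr5:138285269-138338355), a phosphatase that activates CDK1, measured 3 RPKM in all 3 untreated libraries and 5, 6 and 5 RPKM with ATRA. The log2 fold change was 0.80 ± 0.15 (adjusted p = 0.00403). It was called in all 12 fits leaving out 1 library, but these fits kept the filter that it passed only through libraries with ATRA. CDC25C was not tested under a filter on the mean over the 12 libraries, and its call rests on a difference of few rounding steps. MAD2L1 (MAD2), the checkpoint protein that inhibits CDC20, measured 31, 31 and 30 RPKM untreated and 27, 25 and 23 RPKM with ATRA (-0.30 ± 0.07, adjusted p = 0.0160). Its call was lost at 0.0507 to 0.0678 without ATRA replicate 2 or 3 or untreated replicate 1 or 2, and at 0.134 after centring on library medians. Every ATRA library was above every untreated library for 5 of the 57 (AURKA, CDC25C, KIF20A, KIF2C and TTK), against 12.4% of all tested genes, and below every untreated library for another 5 (CCNA2, KIF15, MAD2L1, NCAPH and SMC2), against 17.3%. Without the treated replicates 1, 6 were called higher (CDC25C, ESPL1, KIF14, KIF20A, TPX2 and NCAPD2), against 13% of tested genes. The mitotic kinesin KIF20A, for example, measured 12, 13 and 13 RPKM untreated and 14, 17 and 17 RPKM with ATRA (adjusted p = 0.118 with all libraries and 0.00820 without these replicates).

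Among the 76 tested other mitosis genes, 7 were lower and 2 higher with ATRA, where 11.6% of all tested genes were lower and 8.71% higher. The list was thus not called more often than genes in general. CDC25A changed by -0.69 ± 0.06, SKA3 by -0.39 ± 0.05, SMC3 by -0.35 ± 0.07 and the mitotic kinase PBK by -0.38 ± 0.08, and PSRC1, a spindle protein, by 0.26 ± 0.05. S phase genes had a median of -0.29 with ATRA, with 21 of 41 called lower. Of the regulators, 1 was lower (TFDP1, -0.33 ± 0.07).

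With the combination against untreated cells, 8 mitotic genes were lower and 1 was higher, where 17.7% of all tested genes were called lower and 12.7% higher. The share of the 57 that was called lower was not above that of all genes. The 8 were CCNA2, KIF18B, NCAPH, MAD2L1, SPC25, CDCA5, KIF15 and SMC2, and the gene that was higher was CDC25C. The median of the 57 was -0.09, with 41 negative, and -0.01 with 29 negative after centring on library medians, which left 3 lower calls and CDC25C. This centring moved the median over all tested genes from -0.01 to 0.07. CCNA2 (61, 63 and 55 RPKM) had a log2 fold change of -0.39 ± 0.06 (adjusted p = 0.00102) and NCAPH (25, 29 and 25 RPKM) of -0.38 ± 0.08 (adjusted p = 0.00587). KIF18B, a kinesin that shortens microtubules, measured 14, 14 and 12 RPKM untreated and 10, 11 and 10 RPKM with the combination (-0.36 ± 0.08, adjusted p = 0.00521). With ATRA it measured 11, 12 and 12 RPKM and with palbociclib 12, 12 and 11 RPKM, and neither difference from untreated cells passed the test. MAD2L1 measured 27, 24 and 23 RPKM, at -0.32 ± 0.07 (adjusted p = 0.00853). CDC25C measured 5, 7 and 5 RPKM, at 0.88 ± 0.15 (adjusted p = 0.00163). These 5 genes were called in all 12 fits leaving out 1 library. Those fits kept the filter of the full set, which CDC25C passed only through libraries with ATRA, so they cannot probe that selection.

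The other 4 calls with the combination were less stable. SPC25, at 10 RPKM in all 3 libraries (-0.26 ± 0.08, adjusted p = 0.0247), was lost at 0.0502 to 0.0859 without any 1 combination library or untreated replicate 2 or 3. CDCA5, at 33, 33 and 30 RPKM (-0.25 ± 0.08, adjusted p = 0.0386), was lost at 0.0504 to 0.138 without any 1 combination library, ATRA replicate 2 or untreated replicate 1 or 2. KIF15, a kinesin that holds the bipolar spindle, measured 16 RPKM in all 3 untreated libraries and 11, 14 and 13 RPKM with the combination (-0.34 ± 0.11, adjusted p = 0.0433). SMC2, an ATPase subunit of condensin, measured 15, 14 and 14 RPKM untreated and 10, 13 and 11 RPKM with the combination (-0.34 ± 0.12, adjusted p = 0.0462). KIF15 and SMC2 were both lost, at 0.0589 to 0.146, without ATRA replicate 3, palbociclib replicate 3, combination replicate 1 or 3, or any 1 untreated library, and SMC2 also without palbociclib replicate 2 (0.0514). CDK1 measured 42, 47 and 40 RPKM with the combination, a log2 fold change of -0.24 ± 0.09 that did not pass the test (adjusted p = 0.0579). The number called lower fell to 5 without untreated replicate 1 or 3 or combination replicate 1, and to 4 without untreated replicate 2 or combination replicate 3. Among all 7820 tested genes it fell from 1381 to 1014, 1122, 1346, 1117 and 1064 in these fits, in the same order. Without the treated replicates 1, 9 were lower, against 24.1% of tested genes, and 3 higher, against 16.9%. All 3 combination libraries lay below all 3 untreated libraries for 15 of the 57, against 20.6% of tested genes.

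Against untreated cells, 14 of the 76 other mitosis genes were lower and 2 higher with the combination. Over all tested genes 17.7% were called lower and 12.7% higher, so the lower calls on this list were near the general share. CDC25A measured 15, 15 and 13 RPKM, at -1.28 ± 0.06, WEE1 5 RPKM in all 3 libraries, at -0.67 ± 0.07, and SKA3 and SMC3 changed by -0.53 ± 0.05 and -0.56 ± 0.07. PSRC1 was higher by 0.32 ± 0.05. For the S phase genes 37 of 41 were lower, with a median of -0.76. Of the regulators 5 were lower, among them MYBL2 (B-MYB) at -0.38 ± 0.12 (adjusted p = 0.0389, called in 6 of the 12 fits leaving out 1 library).

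**Figure D4:**
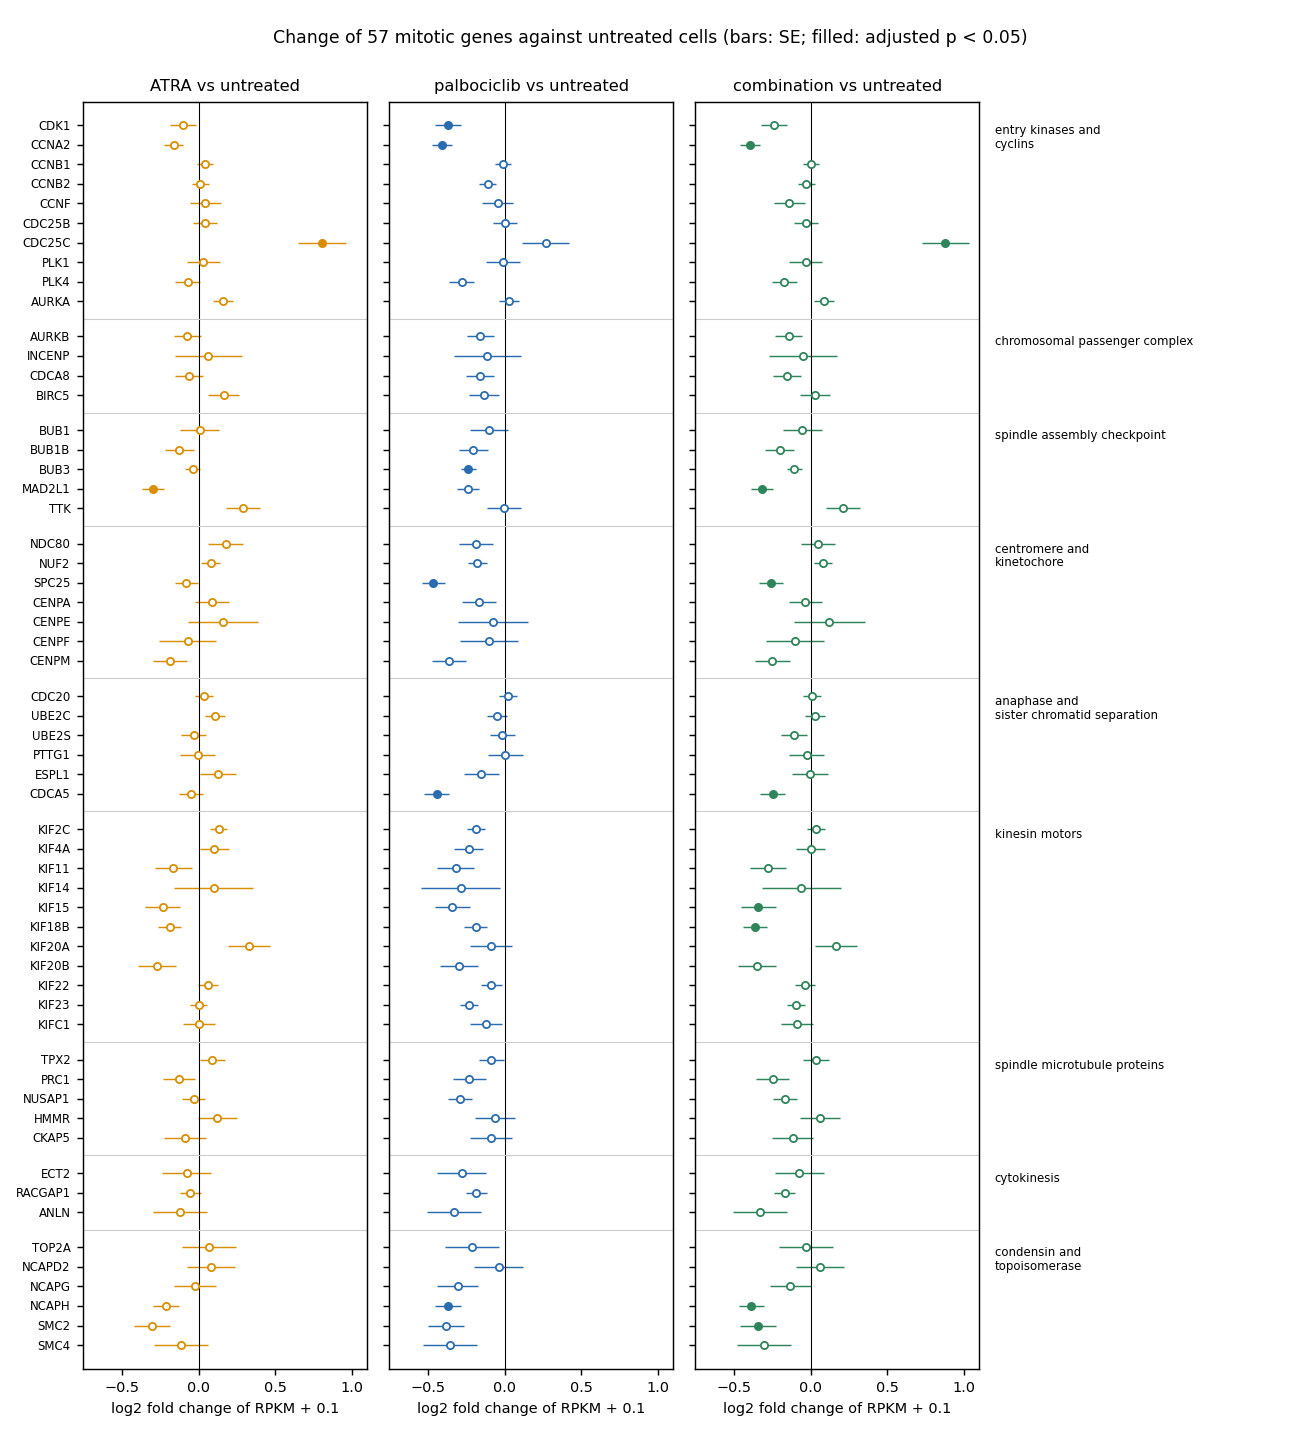
Log2 fold change of RPKM + 0.1 (x axis) of each of the 57 tested mitotic genes (y axis, by role) relative to untreated cells, in 1 panel per treatment. Points are fitted changes, bars the SE, and filled points have an adjusted p under 0.05. With palbociclib 52 of 57 points lie below 0, where 46.7% of all tested genes do. After centring on library medians 43 of the 57 and 31.4% of all tested genes were negative. CDC25C is the only filled point above 0, with ATRA and the combination.

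Adding palbociclib to ATRA (the combination against ATRA) gave no called mitotic gene with limma, in either direction, and 4 lower and 0 higher at an unadjusted p under 0.05, where 3.11% of all tested genes were lower. Over all tested genes 0.115% were called lower and 0% higher. The signs were nevertheless mostly negative, with 54 of 57 below 0, a median of -0.09 and 3 above 0, and 48 of 57 with a median of -0.06 after centring on library medians. For all tested genes the median was 0.00 before this centring and 0.04 after it, with 38.7% and 28.4% negative. CCNA2 measured 70, 73 and 67 RPKM with ATRA and 61, 63 and 55 RPKM with the combination, a change of -0.23 ± 0.06 with no overlap (adjusted p = 0.434). Such separation in the lower direction held for 4 of the 57, against 2.52% of all tested genes. Since same-numbered treated libraries deviated together, the fit with the replicate number as a block bears on this comparison. With the block CCNA2 was called (adjusted p = 0.0400), where 0.639% of all tested genes were called lower. In a blocked fit of the 9 treated libraries alone, added after the data were seen, CCNA2, the separase gene ESPL1, KIF15 and SMC4 were called lower, against 1.83% of all tested genes. CDK1 measured 46, 52 and 44 RPKM with ATRA and 42, 47 and 40 RPKM with the combination, so that each combination library was below the ATRA library of the same number, and the change of -0.14 ± 0.09 was not called with or without the block (adjusted p = 0.449 with it).

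For the addition of ATRA to palbociclib (the combination against palbociclib), NUF2, CDC25C and KIF2C were higher, where 5.86% of all tested genes were called higher, so the number was near that of genes in general. By limma 0 were lower, where 6.64% of tested genes were, and 1 was lower at an unadjusted p under 0.05, where 13.5% were. NUF2 (chr1:163266576-163355764), a subunit of the NDC80 complex, measured 16, 15 and 15 RPKM with palbociclib and 19, 18 and 18 RPKM with the combination (0.26 ± 0.06, adjusted p = 0.0171). KIF2C (chr1:44739818-44767767), the centromeric microtubule depolymerase, measured 33, 35 and 33 RPKM with palbociclib and 38, 42 and 38 RPKM with the combination (0.22 ± 0.06, adjusted p = 0.0264). CDC25C measured 4, 4 and 3 RPKM with palbociclib and 5, 7 and 5 RPKM with the combination (0.61 ± 0.15, adjusted p = 0.0245). None of the 3 overlapped between groups. Of the 57, 5 had every combination library above every palbociclib library, against 8.26% of all tested genes, so this separation was near the general share. NUF2 was lost without palbociclib replicate 2 (0.0579) or 3 (0.0613), CDC25C without palbociclib replicate 3 (0.0938) or combination replicate 2 (0.0886), and KIF2C without palbociclib replicate 1 (0.0661) or 3 (0.0888) or combination replicate 2 (0.103). The number of mitotic genes called higher was 0 without palbociclib replicate 3 and 1 without combination replicate 2. Among all 7820 tested genes it fell from 458 to 362 and 329 in these fits. After centring on library medians, the only gene called was CDC25C, which had passed the filter only through libraries with ATRA.

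With the replicate block, 12 of the 57 were higher in the combination than with palbociclib, against 10.1% of all tested genes. They were CDC25C, the checkpoint genes BUB3 and TTK, the NDC80 complex genes NDC80, NUF2 and SPC25, CDCA5, the kinesins KIF2C, KIF4A and KIF20A, NUSAP1 and the condensin subunit NCAPG. BUB3, SPC25 and CDCA5, all lower with palbociclib alone, had values between those of the palbociclib and untreated groups in the combination, with means of 35.0 ± 1.00, 10.0 ± 0.00 and 32.0 ± 1.73 RPKM. Both comparisons use the same palbociclib libraries, so low values in these libraries would by themselves give both differences, which was not tested. In the blocked fit of the 9 treated libraries, 24 were higher, against 15.7% of all tested genes. CCNA2 was not among them, and its mean was 59.0 ± 2.65 RPKM with palbociclib and 59.7 ± 4.16 RPKM with the combination (0.01, 95% interval -0.13 to 0.16).

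The departure from additivity, which is the change with palbociclib in the presence of ATRA minus that in its absence on the log2 scale, was called for no mitotic gene by limma, with 0 lower and 2 higher at an unadjusted p under 0.05, where 1.97% of all tested genes were higher. Over all tested genes 0% were called in either direction. The median over the 57 was 0.07, with 42 positive. For CDK1 the departure was 0.23 ± 0.12, with a 95% interval of -0.04 to 0.50, and for CCNA2 0.18 ± 0.09, with an interval of -0.02 to 0.38.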

How the data were processed

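RNA sequencing of HL-60 cells gave 12 libraries, 3 per group, grouped by the labels. Per the labels and the study's methods, the authors prepared poly(A) libraries, mapped reads to hg38 with HISAT2 and counted them per gene with HTSeq in default settings. For 58233 genes the deposited score values are RPKM, and the authors had rounded them to integers. Read counts, library depths and the gene lengths behind them were not used here, so no count test was run. The design had assumed RPKM. The rounded values were tested in the same way.

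The model was limma 3.58.1 (R 4.3.3) on log2(RPKM + 0.1) with 1 mean per group over 12 libraries and an expression trend of the variance. It covered 7820 genes with at least 5 RPKM in at least 3 libraries. The comparisons were each treatment against untreated cells, the combination against each single agent, and the departure from additivity. Tables and plots used Python 3.11.15 with pandas 2.3.3 and matplotlib 3.10.9. The script was tested on simulated data. The mitotic genes, the other lists and the tests were chosen with earlier results of these data known. Replicate libraries shared 17.9% to 36.5% identical values and none was a duplicate.

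Deviations from group means of same-numbered libraries correlated across genes. For the combination, r was 0.782 to 0.908 with ATRA libraries and 0.438 to 0.702 with palbociclib libraries, and for the single agents with each other 0.497 to 0.751, so treated libraries were taken as paired by number. Untreated libraries correlated with treated ones at 0.0453 to 0.367, not all above 0.1. What a shared number stands for is not stated. Coordinates are from GENCODE v44 on GRCh38, which is hg38, and promoter windows from RefSeq. The S phase list is that of Seurat. Values in every library are given for genes called in any comparison, and for 1 gene with the largest change in roles without one. Of other lists, up to 5 called genes with the smallest adjusted p are named per comparison. PLK1, CDC20, CCNB1 and KIF20A were added after their values were seen. Alternatives varied the filter, pseudocount, scaling, variance trend, threshold, block and libraries.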

Additional observations from a re-analysis of the deposited data

How the results depend on the processing

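Counts of called mitotic genes depended on the settings as follows. At an adjusted p under 0.001, 0 were called in any comparison. Of the 7820 tested genes, 152 were lower and 217 higher with ATRA at this threshold, and 38 and 1 with palbociclib. The numbers were 335 and 294 with the combination, and 78 and 165 for the combination against palbociclib. Under a filter on the mean over 12 libraries CDC25C was not tested, which left 0 higher with ATRA and 0 with the combination. With a filter at 1 RPKM, or no filter, 5 were lower with the combination, where 1562 of 14003 and 1540 of 15220 tested genes were. Centring on library medians left 0 lower with ATRA, 0 with palbociclib and 3 with the combination, and 1 higher in the combination than with palbociclib. Of the 7820 tested genes, 535, 101 and 793 were then lower and 418 higher in these comparisons. Equal sums gave 2 lower with ATRA, 9 with palbociclib and 12 with the combination, where 1114, 305 and 1619 of the 7820 tested genes were lower. A fit of only the libraries compared gave 2 lower with palbociclib, 5 with the combination, and 1 higher in the combination than with palbociclib. Of the 7820 tested genes, this fit called 147 and 1170 lower and 326 higher, respectively. The replicate block raised the numbers of mitotic genes to 7 lower and 6 higher with ATRA, 24 lower with palbociclib, 20 lower and 2 higher with the combination, 1 lower against ATRA and 12 higher against palbociclib. With the same block the shares of all tested genes were 20.7% lower and 14.7% higher with ATRA, 8.13% lower with palbociclib, and 25.5% lower and 19.8% higher with the combination. With the block and a threshold of 0.001 there were 0 lower with ATRA, 2 with palbociclib and 3 with the combination, and 0 higher against palbociclib. Over the 7820 tested genes these numbers were 346, 78 and 690 lower and 280 higher. For the comparisons with untreated cells the correlations were not all above 0.1, although each library correlated best with its own number (9 of 9 matches in either direction), a hint from the data and not from the design, and the cause of the higher counts was not tested. In the blocked fit of the 9 treated libraries, 4 were lower against ATRA and 24 higher against palbociclib. Without the treated replicates 1, 6 were higher with ATRA and 3 with the combination.

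Leaving out 1 library at a time gave 0 to 2 lower and always 1 higher with ATRA, 2 to 7 lower and always 0 higher with palbociclib, 4 to 9 lower and always 1 higher with the combination, 0 to 3 higher against palbociclib, and 0 against ATRA and for the departure from additivity. Among all 7820 tested genes, 589 to 1011 were lower with ATRA, 141 to 235 with palbociclib and 1014 to 1472 with the combination. Against palbociclib, 329 to 477 were higher in these fits. Of 480 values of the 20 called results under these alternatives, 366 kept the call, 114 lost it and 0 changed sign. Changes to the filter, block, variance trend or threshold leave the fitted change of a gene as it was. Fits leaving out 1 library share most of their values. A change of sign was thus hardly possible, and the 480 values are not independent. The depth of each library is unknown, and rounding to whole RPKM limits what can be seen for low genes such as CDC25C, SPC25, SPC24 and CENPK. Scaling could not be settled from the values, since the library medians took only the values 12 and 13 RPKM.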
